A study of Mus musculus with 56 samples.

Results

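The genes described here encode, in the nucleus, the subunits of respiratory complexes II, III, IV and V. They were picked by symbol, and the rule used no measured value, though earlier results of these data were known when it was set. The rule took Sdha to Sdhd for complex II, Cyc1 and every Uqcr gene for complex III, the Cox genes numbered 4 to 8 for complex IV, and every Atp5 gene for complex V. This gave 45 of the 18088 genes measured, with 4 in complex II, 9 in complex III, 15 in complex IV and 17 in complex V. All 45 reached a value of at least 10 in at least 4 libraries and were tested, among 17778 genes in all. The RNA came from the prefrontal cortex of C57BL/6J mice aged 25 days. Their mothers had been given fluoxetine, lithium or vehicle from postnatal day 3 to day 24, so that the pups took it in with the milk for 3 weeks. The mice were heterozygous for Scn2a (HT), a gene for a voltage-gated sodium channel of neurons, or wild type (WT). There were 9 HT fluoxetine, 10 HT lithium and 10 HT vehicle libraries, and 9 WT fluoxetine, 9 WT lithium and 9 WT vehicle libraries, or 56 in all. Each group divides by sex into sets of 5, or of 4 for the females of HT fluoxetine, WT fluoxetine and WT lithium and for the males of WT vehicle. The labels name no litter or dam and do not describe the Scn2a allele. Pups of a group may therefore share a mother, and the p-values measure only the spread between these libraries.

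Complex II oxidises succinate and is also an enzyme of the tricarboxylic acid cycle. Its electrons pass through ubiquinol to complex III, on to cytochrome c and then to complex IV, which reduces oxygen. Complexes III and IV pump protons across the inner mitochondrial membrane, and complex V, the ATP synthase, uses their return to make ATP. Firing neurons spend much of that ATP on the sodium and potassium pump. Complex II is encoded wholly in the nucleus, while the catalytic cores of complexes III and IV and the proton channel of complex V also need subunits made from mitochondrial DNA.

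Depth ran from 24253955 to 36385936 reads per library. Scn2a, the check of genotype, had 8554 ± 423 normalised reads in HT libraries (SD, n = 29) and 12311 ± 780 in WT libraries (SD, n = 27), and the ranges did not overlap. A normalised read is a read count divided by the size factor of its library. The marker of cortical excitatory neurons Slc17a7 averaged 54054 normalised reads. In 19 libraries transcripts of olfactory bulb or striatum, regions that border the dissected tissue, stood more than 1 above the middle library on a log2 score of their markers. Among the subunits, the library of WT fluoxetine male 5 was the lowest of 56 for 11 genes, HT vehicle female 5 was the highest for 11, and WT lithium female 2 was the highest for 9.

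Together the 45 subunits made up 0.617 ± 0.0255% of all normalised reads (SD, n = 56), within a range of 0.551 to 0.675%. Per kilobase of transcript, the highest levels belonged to Cox8a at 15175 normalised reads and Cox4i1 at 15122. Both are small or regulatory subunits of complex IV, cytochrome c oxidase. Atp5b, the catalytic beta subunit of complex V, followed at 13554 per kilobase, Cox6a1 at 12536 and Atp5a1, the alpha subunit, at 8759. Sdha, the subunit of complex II that binds FAD and oxidises succinate, was at 3508 per kilobase. The iron-sulfur subunit Sdhb was at 2296, and the membrane anchors Sdhd and Sdhc were at 1534 and 547. In complex III the highest level was 5106 per kilobase for Uqcrh, the hinge protein that binds cytochrome c1, and the lowest was 1750 for Uqcrfs1, the Rieske iron-sulfur protein. Atp5s, which is known as a coupling or assembly factor and is not part of the core enzyme, had 189 normalised reads per kilobase. Only 3 subunits were under 100 per kilobase: Cox4i2 at 33.1, Cox6b2 at 32.0 and Cox7a1 at 28.2.

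**Figure D1:**
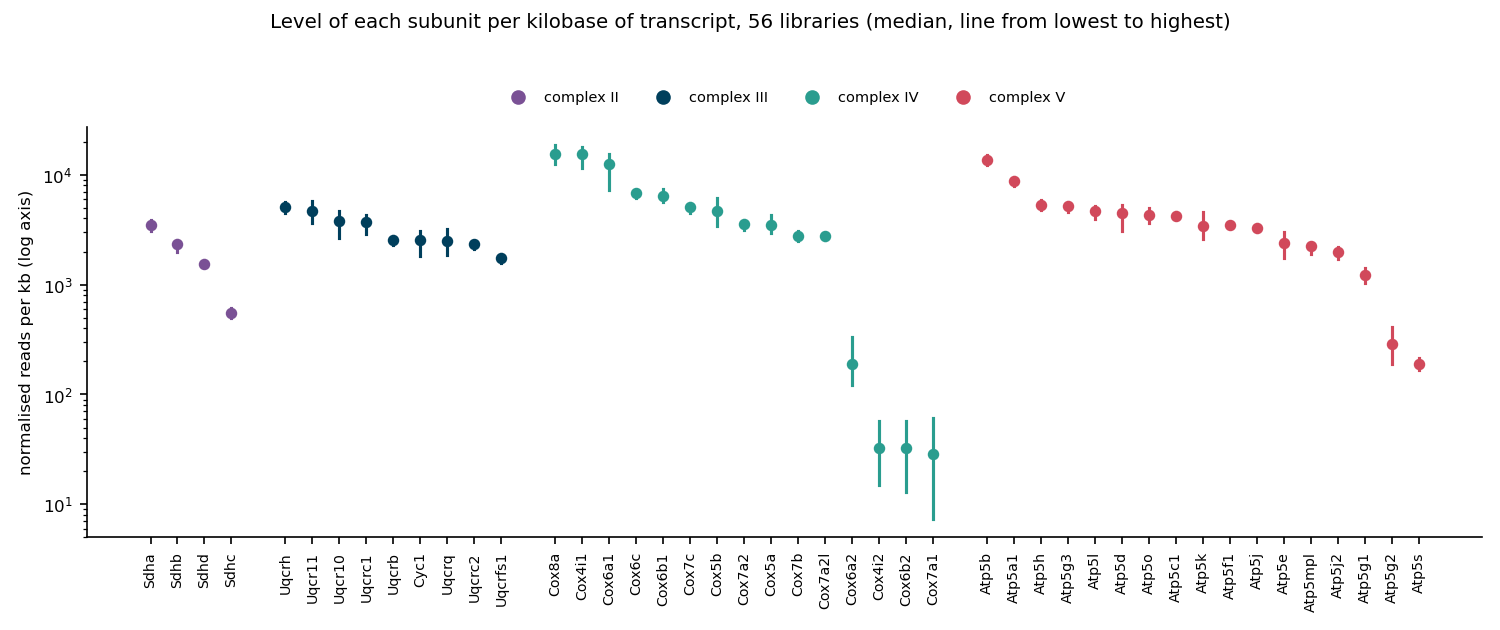
Level of each of the 45 subunits in normalised reads per kilobase of transcript on a log axis, sorted within each complex. Points are medians of 56 libraries and lines run from the lowest to the highest library; Cox6a2, Cox4i2, Cox6b2 and Cox7a1 lie far below the rest of complex IV.

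The spread over the 56 libraries differed between subunits. The coefficient of variation was 2.70% for Atp5c1, the gamma subunit of the rotor of complex V, and 38.1% for Cox7a1, with a median of 5.23% over the 45. Among the 38 subunits with a mean of at least 1000 normalised reads, the 8 with a transcript GC content of 55% or more had a median coefficient of variation of 9.23%. The other 30 had 4.51%. Across these 38 genes the coefficient of variation was higher at higher GC content (Spearman rho 0.64). This is a correlation across genes that share the same libraries, not across replicates, and the limit of 55% was set after the values were seen.

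Mouse promoter windows of 300 bases, from 250 bases before to 50 bases after the annotated start, were taken from RefSeq on GRCm38.p6 for 34 of the 45 subunits. 5 motifs were searched in the letters of both strands. A gene counted once if any of its windows held a match. The comparison was with all 27025 genes that have a window, which is more than the 18088 genes measured here. It therefore includes genes outside the measured table. The motif of NRF1, a known regulator of respiratory chain genes, was GCGCA and GCGC with any base between them. It was found for 10 subunits (29.4%), against 5.19% of the 27025 genes. The ETS motif ACCGGAAG, to which the GABP (NRF2) complex is known to bind, was found in 3 windows (8.82%, against 2.60% of all genes). The YY1 motif AAGATGGC was also found in 3 (8.82%, against 3.19%). The SP1 motif GGGCGG was found in 13 (38.2%, against 38.2% of all genes), and the TATA box TATAAA in 1 (2.94%, against 15.7%). No matches of different motifs overlapped in these windows. Median GC content was 56.7% in the windows of the subunits and 52.7% in those of all genes. A match is a description of letters and not a bound site. Of the 8 subunits called under lithium, 6 had a window. The windows of 4 of them are shown because both directions of change occurred among them: Sdha and Atp5b rose in WT mice, and Atp5e and Atp5l fell in both genotypes. Those of Uqcrh and Cox7a2l, which fell in HT mice, are not shown and held no NRF1, ETS or YY1 match. Capitals mark matches to the NRF1, ETS or YY1 motif on either strand, and each window reads 5′ to 3′ along its gene. Sdha lies at chr13:74350191-74350490 on the minus strand and holds 3 NRF1 matches. Atp5b lies at chr10:128083057-128083356 on the plus strand and Atp5l at chr9:44920693-44920992 on the minus strand, both without a match to these 3 motifs. Atp5e lies at chr2:174464052-174464351 on the minus strand and holds 1 ETS match.
Sdha: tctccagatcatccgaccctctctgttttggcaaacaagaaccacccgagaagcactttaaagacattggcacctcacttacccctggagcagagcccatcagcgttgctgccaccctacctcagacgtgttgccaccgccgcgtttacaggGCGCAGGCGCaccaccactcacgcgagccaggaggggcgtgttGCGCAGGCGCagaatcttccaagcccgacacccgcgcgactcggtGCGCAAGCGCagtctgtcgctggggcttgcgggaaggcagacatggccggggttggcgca
Atp5b: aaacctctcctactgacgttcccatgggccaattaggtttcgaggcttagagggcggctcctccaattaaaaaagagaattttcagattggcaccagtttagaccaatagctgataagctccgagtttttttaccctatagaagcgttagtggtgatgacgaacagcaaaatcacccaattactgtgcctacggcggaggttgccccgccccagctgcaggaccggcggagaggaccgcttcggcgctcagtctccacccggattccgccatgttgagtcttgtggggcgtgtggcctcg
Atp5e: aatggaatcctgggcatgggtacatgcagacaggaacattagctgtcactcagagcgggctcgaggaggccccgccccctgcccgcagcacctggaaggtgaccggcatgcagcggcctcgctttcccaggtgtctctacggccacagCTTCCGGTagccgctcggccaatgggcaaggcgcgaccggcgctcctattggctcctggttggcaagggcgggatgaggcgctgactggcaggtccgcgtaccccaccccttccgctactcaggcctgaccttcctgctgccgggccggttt
Atp5l: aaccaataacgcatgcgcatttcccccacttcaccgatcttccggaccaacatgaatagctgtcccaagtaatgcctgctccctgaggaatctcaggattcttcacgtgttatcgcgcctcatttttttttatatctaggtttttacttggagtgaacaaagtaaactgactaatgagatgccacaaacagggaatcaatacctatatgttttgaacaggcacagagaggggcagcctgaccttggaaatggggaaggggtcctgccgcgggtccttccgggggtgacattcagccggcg

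Lithium against vehicle was the comparison in which subunits were called, at an adjusted p below 0.05 over all 17778 genes. In HT mice 5 subunits fell and none rose: Uqcrh and Uqcrq of complex III, Cox7a2l, and Atp5e and Atp5l of complex V. That is 11.1% of the 45, where 8.77% of all genes tested were called, 4.64% higher and 4.13% lower. In WT mice 3 subunits rose, namely Sdha, Atp5b and Cox6a2, and 2 fell, Atp5e and Atp5l. The 5 also make 11.1%, where 5.71% of all genes tested were called, 3.84% higher and 1.88% lower. The changes were small: the called falls lay between a log2 change of -0.07 for Cox7a2l in HT mice and -0.26, or 16.7%, for Atp5e in WT mice, and the rises between 7.13% for Atp5b and 30.2% for Cox6a2. In either genotype, no subunit had lithium and vehicle libraries whose ranges did not overlap, a pattern seen in 0.214% of all genes in HT mice and in 0.411% in WT mice. Counting the called ones, 41 of 45 subunits were lower under lithium in HT mice, the median log2 change was -0.06, and 18 had an unadjusted p below 0.05. In WT mice 28 were lower, the median log2 change was -0.04, and 11 had such a p. The medians over all genes tested were near 0 in both. Of all genes with transcripts under 600 bases, 67.7% were lower in HT and 71.5% in WT mice. For genes from 600 to under 1000 bases it was 67.3% and 67.9%, and for longer ones 48.5% and 47.2%. The 45 subunits share their libraries and are not independent of each other. The share of all genes at an unadjusted p below 0.05 is not given here, so the 18 and 11 have no background beside them. Leaving out any 1 library gave between 2 and 10 called subunits in HT mice and between 3 and 6 in WT mice.

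**Figure D2:**
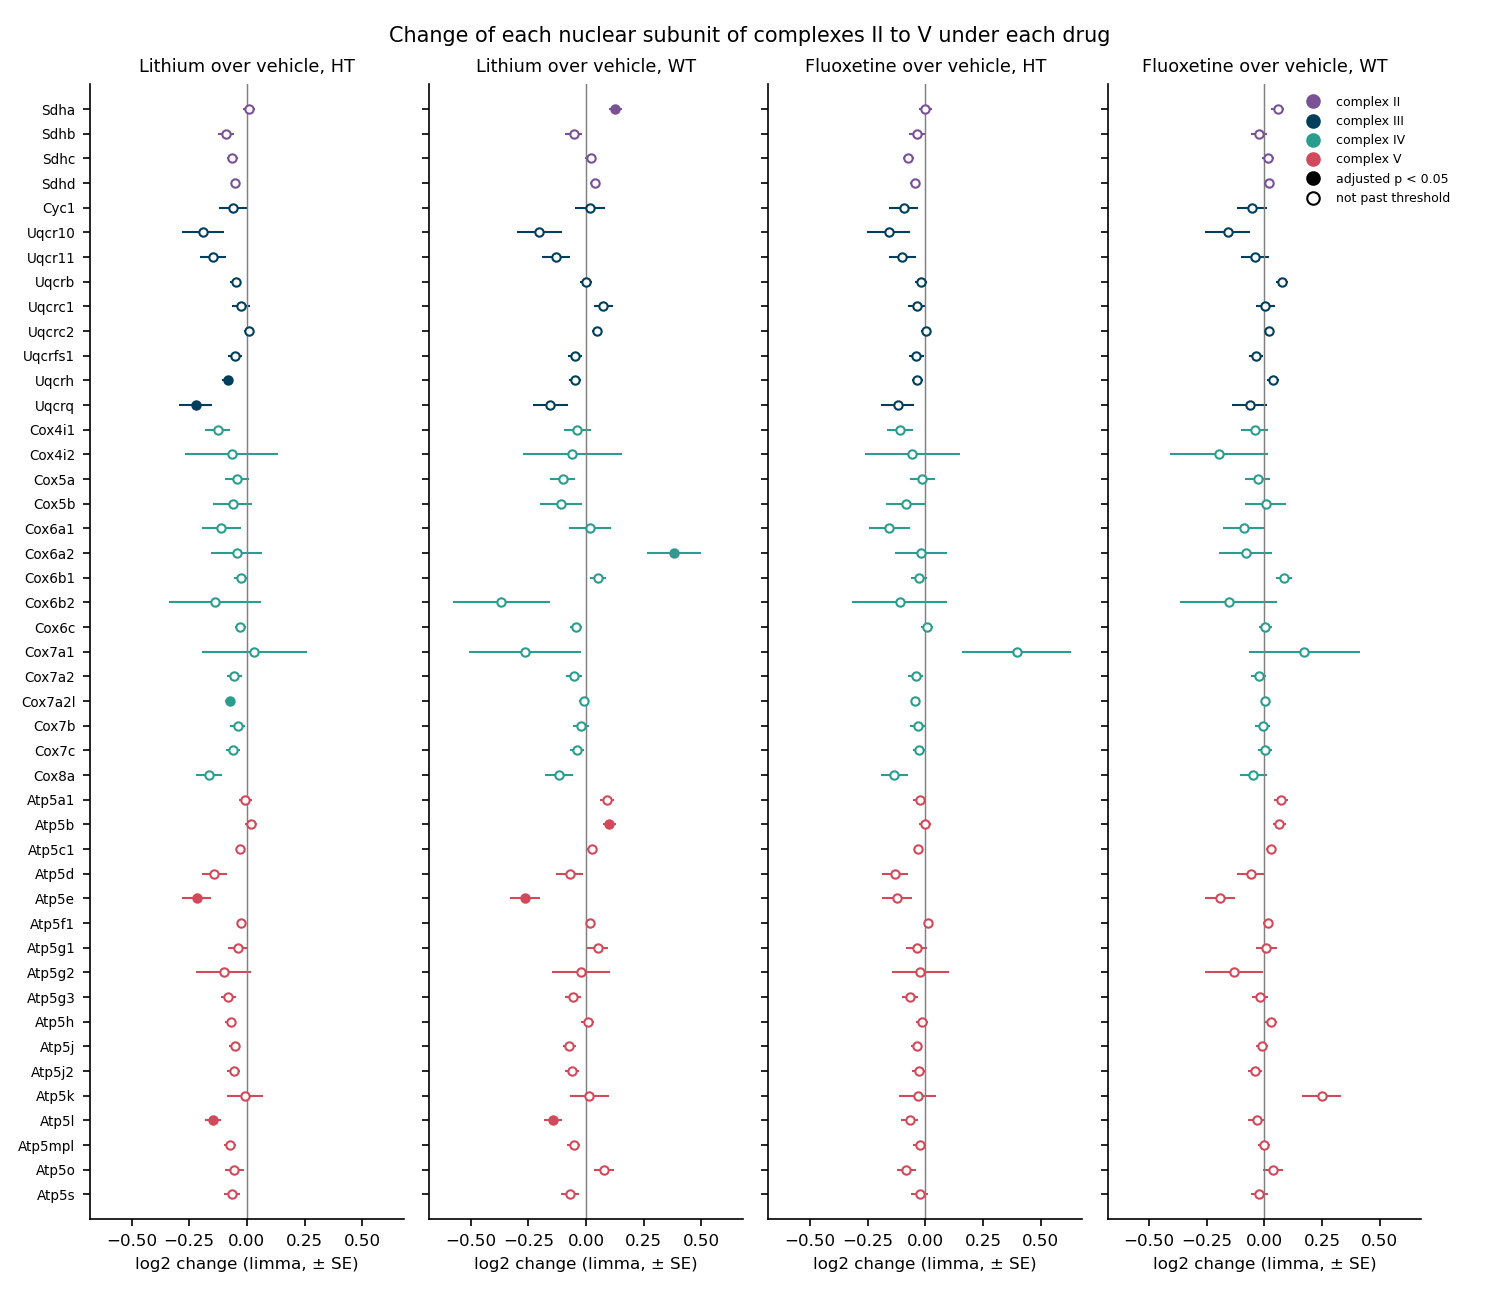
Log2 change of each of the 45 subunits under lithium and under fluoxetine, each over vehicle, in HT and WT mice (limma estimate ± SE; filled points are at an adjusted p below 0.05). Filled points appear under lithium only, 5 below 0 in HT mice, and 3 above and 2 below 0 in WT mice.

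In complex II, Sdha had 9762 normalised reads in the lowest, 10278 in the middle and 10621 in the highest of the HT lithium libraries, against 9597, 10177 and 11063 in HT vehicle libraries. In WT lithium libraries these were 10178, 10526 and 11246, against 9001, 9659 and 10574 in WT vehicle libraries. All 9 WT lithium libraries lay above the mean of WT vehicle libraries of their sex, and the ranges overlapped only at the upper end of the WT vehicle group. In WT mice Sdha rose by 9.17% (log2 change 0.13 ± 0.03 SE, adjusted p = 0.00503), whereas in HT mice the log2 change was 0.01 ± 0.03 (adjusted p = 0.880). The HT vehicle mean of 10204 ± 549 lay above the WT vehicle mean of 9719.9 ± 437 (SD, n = 10 and 9). The other 3 genes of the complex were not called. Sdhb had the smallest p of complex II in HT mice, with 2525 ± 127 normalised reads in HT lithium libraries and 2686 ± 105 in HT vehicle libraries (SD, n = 10 each; log2 change -0.09 ± 0.03, adjusted p = 0.0834). Its WT means were 2576 ± 131 under lithium and 2679.7 ± 76.2 under vehicle (SD, n = 9 each).

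In complex III, Uqcrh had a lowest, middle and highest value of 2476, 2661 and 2895 normalised reads in HT lithium libraries, against 2686, 2845 and 2993 in HT vehicle libraries. Of the 10 HT lithium libraries, 9 lay below the mean of HT vehicle libraries of their sex, and the ranges overlapped. Uqcrh fell by 5.66% in HT mice (log2 change -0.08 ± 0.02 SE, adjusted p = 0.0188). In WT mice it had 2719.6 ± 106 under lithium and 2810.1 ± 61.3 under vehicle (SD, n = 9 each), which did not pass (adjusted p = 0.259). Uqcrq, a small subunit of the membrane part of the complex, had 1818, 2223 and 2796 in HT lithium libraries, against 2159.8, 2561 and 3074 in HT vehicle libraries, again with 9 of 10 below the same-sex mean and with wide overlap. It fell by 14.3% in HT mice (log2 change -0.22 ± 0.07, adjusted p = 0.0403). The WT values were 2257 ± 177 under lithium and 2529.6 ± 151 under vehicle (SD, n = 9 each; log2 change -0.16 ± 0.08, adjusted p = 0.221). The small subunits Uqcr10 and Uqcr11 were lower in HT mice by a log2 change of -0.19 ± 0.09 and -0.15 ± 0.06 without being called. Of the core subunits, Uqcrc2 had the smallest p of complex III in WT mice, with 4498 ± 122 under lithium and 4359.8 ± 81.6 under vehicle (SD, n = 9 each; log2 change 0.05 ± 0.02, adjusted p = 0.186). In HT mice its means were 4439 ± 111 and 4415 ± 176 in that order (SD, n = 10 each).

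In complex IV, Cox7a2l is a relative of Cox7a2 that helps to join complexes III and IV into a supercomplex, and C57BL/6 mice are known to carry a shortened form of its protein. It had a lowest, middle and highest value of 2777, 2872 and 2956 normalised reads in HT lithium libraries, against 2941, 3002 and 3132 in HT vehicle libraries. All 10 HT lithium libraries were below the mean of HT vehicle libraries of their sex, and the ranges overlapped by a narrow margin. It fell in HT mice (log2 change -0.07 ± 0.02 SE, adjusted p = 0.00948). In WT mice it had 2932 ± 90.9 under lithium and 2948 ± 86.0 under vehicle (SD, n = 9 each), a log2 change of -0.01 ± 0.02. Cox6a2 is the isoform known from heart and skeletal muscle, which in the mouse cortex is also known from parvalbumin interneurons. It had 130.0, 155 and 225 normalised reads in WT lithium libraries, against 103, 126 and 146 in WT vehicle libraries, and 8 of 9 WT lithium libraries lay above the same-sex mean. The rise was 30.2% (log2 change 0.38 ± 0.12, adjusted p = 0.0416), and the highest value, 225, stood apart in WT lithium female 2. Without that library the log2 change was 0.30 with an adjusted p of 0.126. In HT mice Cox6a2 had 126 ± 24.9 under lithium and 128 ± 13.3 under vehicle (SD, n = 10 each). Pvalb itself was not called under lithium in either genotype (log2 change 0.11 ± 0.09 in HT and 0.16 ± 0.10 in WT mice, adjusted p = 0.503 and 0.356). Of the genes of complex IV that were not called in HT mice, Cox8a came nearest with 7908 ± 566 under lithium and 8863 ± 567 under vehicle (SD, n = 10 each; log2 change -0.17 ± 0.06, adjusted p = 0.0562).

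In complex V, Atp5e, the epsilon subunit of the rotor, had a lowest, middle and highest value of 739, 904 and 1104 normalised reads in HT lithium libraries, against 945, 1046 and 1268 in HT vehicle libraries. In WT mice it had 800.3, 931 and 1112 under lithium, against 1017, 1099.7 and 1225 under vehicle. Of the lithium libraries, 9 of 10 in HT and 9 of 9 in WT mice were below the same-sex vehicle mean, and the ranges overlapped in both. Atp5e fell by 14.0% in HT mice (log2 change -0.22 ± 0.06 SE, adjusted p = 0.0180) and by 16.7% in WT mice (-0.26 ± 0.06, adjusted p = 0.0122). Atp5l encodes subunit g of the membrane part, which takes part in pairing ATP synthases into dimers. It had 2164, 2327 and 2684 in HT lithium libraries, against 2345, 2641 and 2849.7 in HT vehicle libraries. In WT mice it had 2188, 2353 and 2737 under lithium, against 2533, 2618 and 2683 under vehicle. In HT mice 9 of 10 and in WT mice 8 of 9 lithium libraries lay below the same-sex mean; the WT lithium value of 2737 in female 2 exceeded the highest WT vehicle value. Atp5l fell by 9.61% in HT mice (-0.15 ± 0.04, adjusted p = 0.00678) and by 9.51% in WT mice (-0.14 ± 0.04, adjusted p = 0.0169).

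Atp5b, the beta subunit that carries the catalytic sites, had 24863, 26343 and 26831 normalised reads in HT lithium libraries, against 23834, 25477 and 29046 in HT vehicle libraries. In WT mice it had 25996, 26557 and 28246 under lithium, against 24044, 25011 and 26039.5 under vehicle. All 9 WT lithium libraries were above the same-sex vehicle mean, and the ranges met only at their edges. Atp5b rose by 7.13% in WT mice (log2 change 0.10 ± 0.03 SE, adjusted p = 0.0275), with a log2 change of 0.09 and an adjusted p of 0.0729 when WT lithium female 2 was left out, and with 0.02 ± 0.03 in HT mice (adjusted p = 0.725). Its partner Atp5a1, the alpha subunit, had a log2 change of 0.09 ± 0.03 in WT mice (adjusted p = 0.0632) and -0.01 ± 0.03 in HT mice. In HT mice 16 of the 17 genes of complex V were lower under lithium, with a median log2 change of -0.06, and in WT mice 9 were lower, with a median of -0.02.

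**Figure D3:**
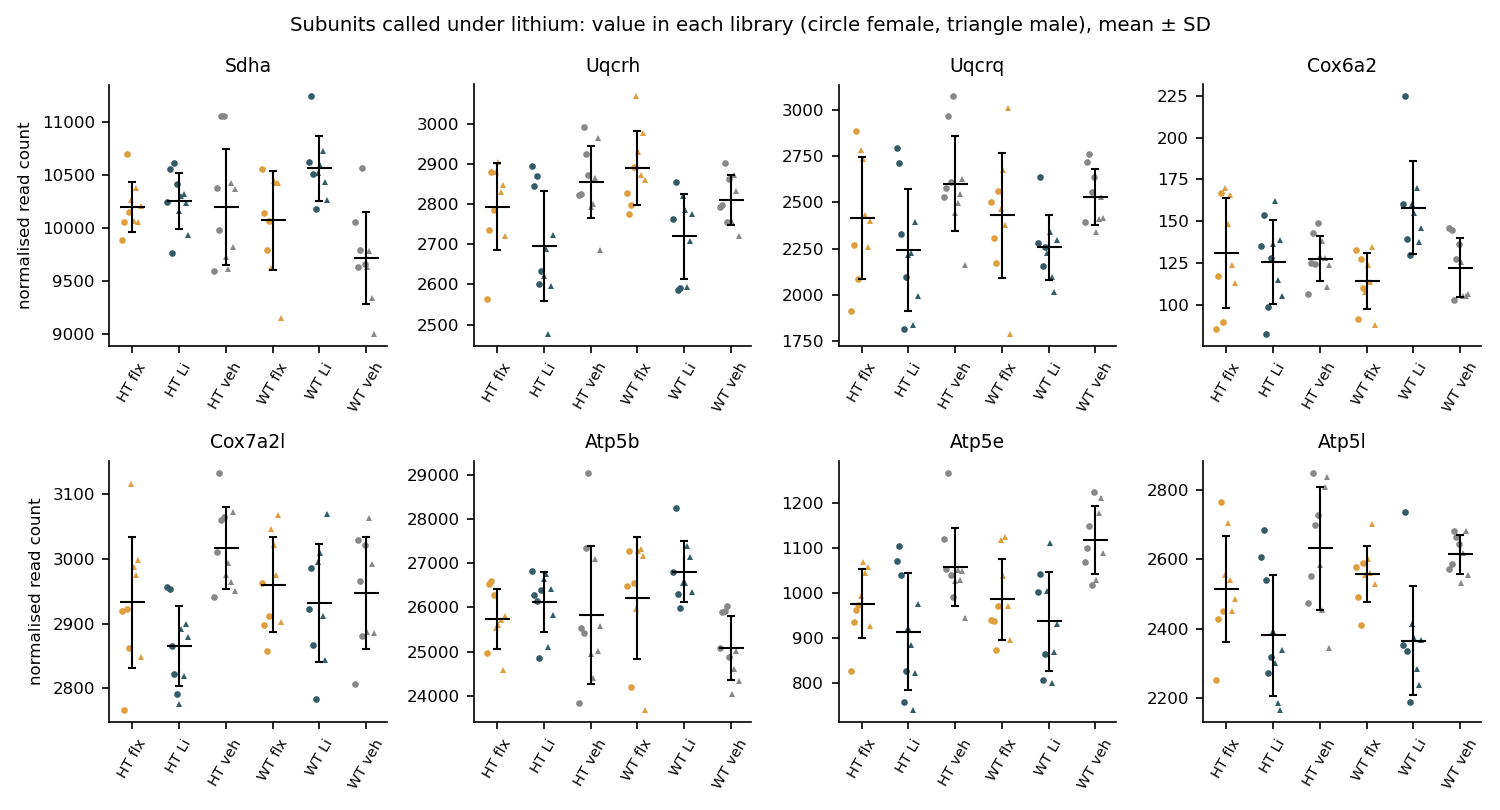
Normalised read count of the 8 subunits called under lithium in each of the 56 libraries, by genotype and treatment (flx fluoxetine, Li lithium, veh vehicle; circles females, triangles males; bars mean ± SD). Sdha and Atp5b are high in WT lithium libraries relative to WT vehicle libraries, and Atp5e and Atp5l are low in both lithium groups relative to vehicle of the same genotype.

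No subunit was called within 1 sex. All genes were called at 0.99% in HT females, 0.546% in HT males, 0.799% in WT females and 0.208% in WT males. No subunit had a lithium effect that differed between the sexes (0 of 45, with 0% of all genes called). Sdha changed on the log2 scale by 0.10 ± 0.04 in WT females (adjusted p = 0.157) and by 0.16 ± 0.04 in WT males (adjusted p = 0.0665). Among HT mice Atp5l changed by -0.10 ± 0.05 in females and by -0.19 ± 0.05 in males (adjusted p = 0.326 and 0.0566). The genotype by lithium interaction, the difference between the HT and WT effects, was not called for any subunit (0 of 45, with 0% of all genes tested). The smallest adjusted p was 0.253 for Sdha, whose lithium effect was lower in HT than in WT mice by a log2 difference of -0.12 (95% interval -0.19 to -0.04). For Cox6a2 it was -0.42 (95% interval -0.74 to -0.11, adjusted p = 0.337) and for Atp5b -0.08 (95% interval -0.16 to -0.0047, adjusted p = 0.449). For Atp5l the difference was -0.0016 (95% interval -0.10 to 0.10), and for Cox7a2l -0.06 (95% interval -0.12 to -0.01, adjusted p = 0.412). In complex III the smallest p belonged to Uqcrc1, a core subunit (log2 difference -0.10, adjusted p = 0.498), and in complex V to Atp5a1 (-0.10, adjusted p = 0.412). The interaction was negative for 35 of 45 subunits, with a median of -0.04 beside -0.01 for all genes. A call in WT mice and none in HT mice, as for Sdha, Atp5b and Cox6a2, is therefore not shown to be a difference between genotypes.

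Summed over its genes, complex II made up 0.0552 ± 0.000885% of all normalised reads in HT lithium libraries and 0.0557 ± 0.00215% in HT vehicle libraries (SD, n = 10 each), and 0.0560 ± 0.00166% in WT lithium and 0.0542 ± 0.00197% in WT vehicle libraries (SD, n = 9 each). For complex III the shares were 0.0891 ± 0.00492% in HT lithium and 0.0928 ± 0.00414% in HT vehicle libraries, and 0.0900 ± 0.00387% in WT lithium and 0.0929 ± 0.00290% in WT vehicle libraries. Complex IV held 0.172 ± 0.0106% in HT lithium and 0.182 ± 0.00930% in HT vehicle libraries, and 0.172 ± 0.0107% in WT lithium and 0.181 ± 0.00552% in WT vehicle libraries. Complex V held 0.295 ± 0.0101% in HT lithium and 0.298 ± 0.0126% in HT vehicle libraries, and 0.297 ± 0.00899% in WT lithium and 0.294 ± 0.00782% in WT vehicle libraries. For complexes III and IV the lithium means were the lower ones in both genotypes. These sums were not tested, and the ranges of lithium and vehicle libraries overlapped in every complex. They follow the most abundant genes, such as Sdha (mean 10172 normalised reads), Atp5b (25969) and Atp5a1 (21644). Weighting genes equally, the mean log2 deviation from each gene's median over libraries was also untested. For complex II it was -0.028 ± 0.033 in HT lithium and 0.021 ± 0.045 in HT vehicle libraries (SD), and 0.009 ± 0.043 and -0.020 ± 0.037 in WT. For complex V it was -0.045 ± 0.072 and 0.023 ± 0.055 in HT, and -0.012 ± 0.055 and 0.015 ± 0.022 in WT.

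**Figure D4:**
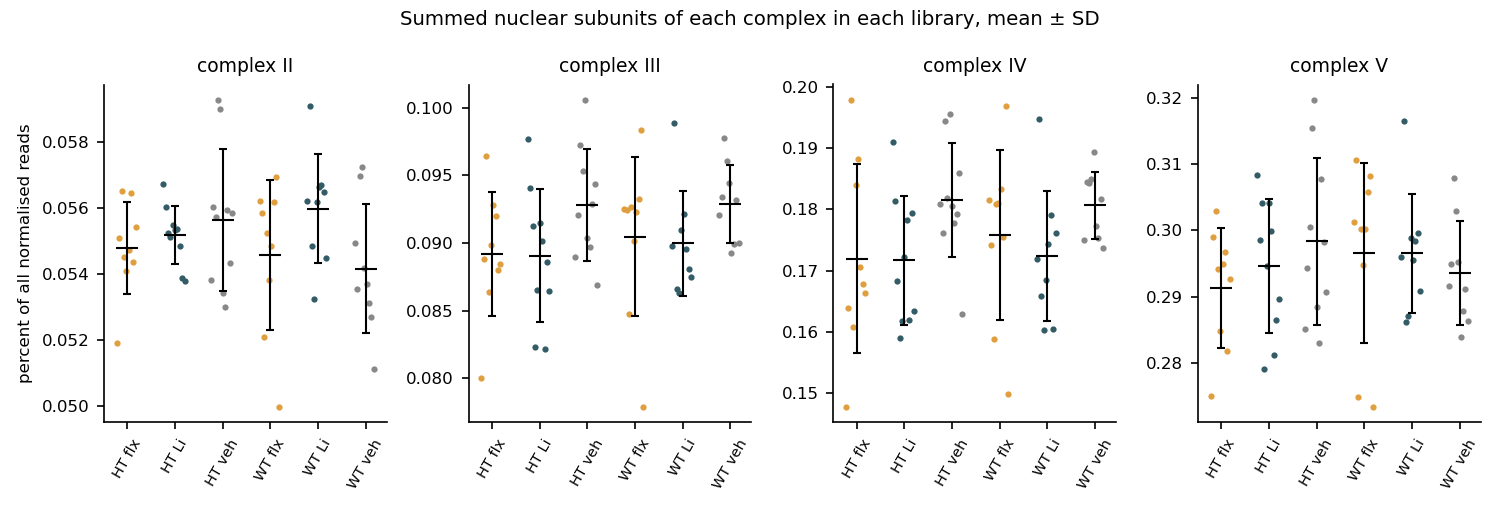
Percent of all normalised reads that fell on the nuclear subunits of each complex, 1 point per library, by genotype and treatment (flx fluoxetine, Li lithium, veh vehicle; bars mean ± SD). The groups overlap in all 4 panels.

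The lithium changes differed with transcript length. In HT mice the 14 subunits with transcripts under 600 bases had a median log2 change of -0.11, with 13 lower, the 14 from 600 to under 1000 bases had -0.06, with 14 lower, and the 17 of 1000 bases or more had -0.04, with 14 lower. All tested genes of these length classes had medians of -0.09, -0.06 and 0.00. In WT mice the medians were -0.09 for the shortest subunits, with 12 lower, -0.05 for the next class, with 10 lower, and 0.02 for the longest, with 6 lower, beside -0.10, -0.06 and 0.01 for all genes. Of the called subunits that fell, Atp5e (421 bases), Atp5l (544 bases) and Uqcrh (547 bases) are short. Uqcrq (963 bases) is in the middle class, and Cox7a2l (1076 bases) is in the longest. Of those that rose, Atp5b (1916 bases) and Sdha (2900 bases) are long, while Cox6a2 (680 bases) is in the middle class. Over the 45 subunits the log2 change correlated with the logarithm of length at a Pearson r of 0.40 in HT and 0.47 in WT mice, as a description across genes that share their libraries. The libraries themselves differed in this respect. In each library, the log2 deviation of every gene from its mean over all libraries was fitted on log2 length and GC content together. The length slope, per SD of log2 length, is therefore relative to the other libraries and centres on 0. It averaged 0.013 ± 0.019 in HT lithium and -0.013 ± 0.016 in HT vehicle libraries (SD, n = 10 each), and 0.018 ± 0.018 in WT lithium and -0.0051 ± 0.011 in WT vehicle libraries (SD, n = 9 each). When each library's slopes on length and GC content entered the model, no subunit was called in HT mice, where 2.59% of all genes still were. In WT mice 3 subunits rose and none fell (1.97% of all genes called): Sdha by a log2 change of 0.12 (adjusted p = 0.0117), Cox6a2 by 0.52 (adjusted p = 0.00685) and Cox6b1, a subunit facing the intermembrane space, by 0.12 (adjusted p = 0.0152). The subunits with a lower value then numbered 25 in HT and 18 in WT mice. A trend with length was not particular to lithium. For fluoxetine over vehicle in HT mice, the medians of all genes in the 3 length classes were -0.048, -0.035 and 0.003. In WT mice they were 0.015, -0.0033 and 0.0028, without that order.

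**Figure D5:**
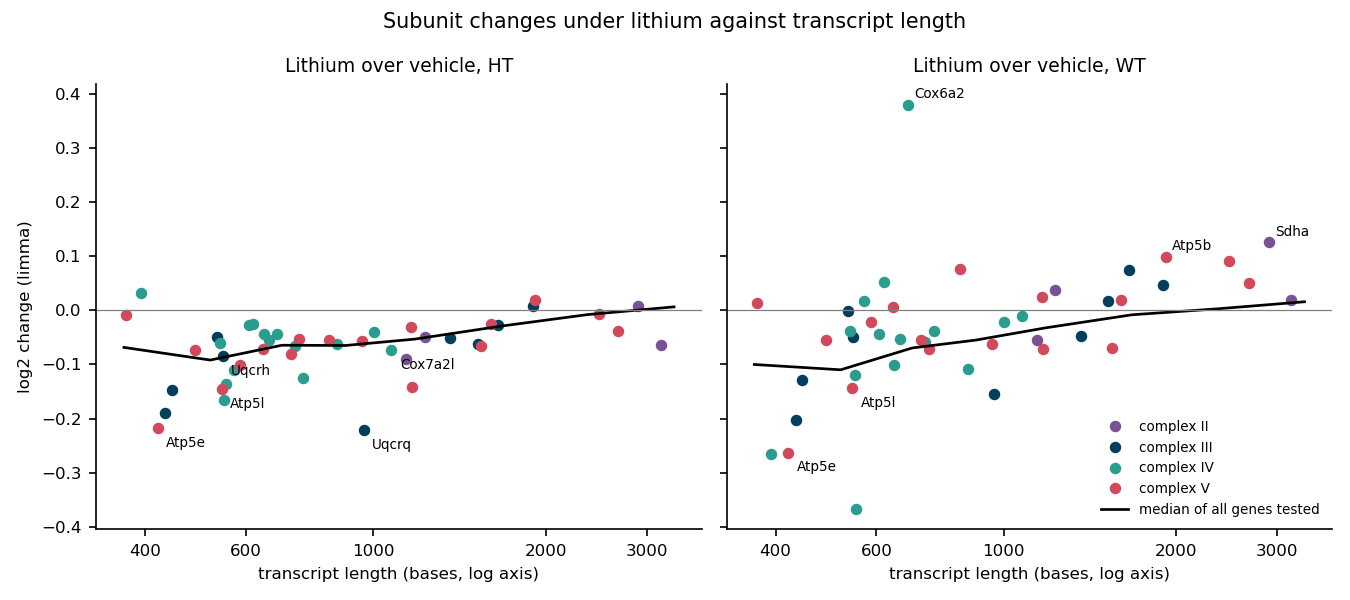
Log2 change of each subunit under lithium over vehicle against transcript length on a log axis, in HT and WT mice, coloured by complex; the line is the median change of all genes tested in successive length classes. The short Atp5e and Atp5l lie low, and in WT mice the long Atp5b and Sdha lie above 0 and above the line. Cox7a2l, in the longest class, lies below 0 in HT mice, and Cox6a2, in the middle class, lies above 0 in WT mice.

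Fluoxetine changed no subunit past the threshold in either genotype (0 of 45 in HT mice, where 0.045% of all genes were called, and 0 of 45 in WT mice, where 0.146% were). In HT mice 40 of 45 subunits were lower, with a median log2 change of -0.04 (0.0008 for all genes) and 5 at an unadjusted p below 0.05. Of all genes under 600 bases 64.6% were lower there, of those from 600 to under 1000 bases 62.9%, and of longer ones 48.1%. With the length and GC slopes in the model, the median of the subunits was -0.01. The share of all genes at an unadjusted p below 0.05 is not given here for fluoxetine. The member of complex II with the smallest p was Sdhc, an anchor in the membrane, at 1701 ± 55.4 normalised reads in HT fluoxetine and 1786 ± 63.2 in HT vehicle libraries (SD, n = 9 and 10; log2 change -0.07 ± 0.02, adjusted p = 0.439). In complex III it was Uqcr11, at 1993 ± 223 under fluoxetine and 2122 ± 231 under vehicle (adjusted p = 0.657). For complex IV it was Cox8a, at 8131 ± 1163 and 8863 ± 567 in that order (adjusted p = 0.559), and for complex V Atp5d, the delta subunit of the rotor, at 4978 ± 429 and 5434 ± 352 (adjusted p = 0.562). In WT mice 24 of 45 were lower, with a median of -0.01 (0.0025 for all genes) and 7 at an unadjusted p below 0.05. The smallest p-values there belonged to Atp5e, at 986 ± 89.8 in WT fluoxetine and 1119 ± 76.2 in WT vehicle libraries (SD, n = 9 each; log2 change -0.19 ± 0.06, adjusted p = 0.197), and to Uqcrb, at 1409.7 ± 41.0 and 1337 ± 52.9 (0.08 ± 0.03, adjusted p = 0.197). In complex IV it was Cox6b1, at 4116 ± 134 and 3889 ± 132 (adjusted p = 0.310), and in complex II Sdha, at 10074 ± 468 and 9719.9 ± 437 (adjusted p = 0.429). The interaction of genotype and fluoxetine was called for 0 of 45 subunits and for 0% of all genes. Its smallest p in complexes II to V belonged to Sdhc, Uqcrb, Cox6b1 and Atp5k, with log2 differences of -0.09, -0.10, -0.11 and -0.28 and an adjusted p of 0.841, 0.812, 0.865 and 0.859. Atp5k, subunit e of the membrane part, had 1269 ± 164 in HT fluoxetine and 1301 ± 229 in HT vehicle libraries, and 1462 ± 139 in WT fluoxetine and 1235 ± 107 in WT vehicle libraries. The other subunits that lithium changed had these fluoxetine values. Sdha had 10198 ± 234 in HT fluoxetine libraries, and Atp5b had 25738 ± 677 there and 26215 ± 1381 in WT fluoxetine libraries (SD, n = 9 each). Uqcrh had 2794 ± 108 and 2889 ± 91.8 in HT and WT fluoxetine libraries, and Uqcrq had 2418 ± 330 and 2429.8 ± 338. Cox7a2l had 2932 ± 101 and 2960.1 ± 73.1, and Cox6a2 had 131 ± 32.9 and 114 ± 16.9. Atp5l had 2514 ± 153 and 2558 ± 79.7, and Atp5e had 977 ± 76.9 in HT fluoxetine libraries. None of these genes was called. Fluoxetine and lithium were compared with the same vehicle libraries, so their effects are not independent of each other.

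Between genotypes no subunit was called under any treatment. Under vehicle, where 0.00562% of all genes were called, 30 of 45 subunits were higher in HT than in WT mice, with a median log2 difference of 0.02. Sdha had the smallest p (0.07 ± 0.03, adjusted p = 0.323), followed within their complexes by Atp5c1 at 5003 ± 133 in HT and 4854 ± 106 in WT vehicle libraries (adjusted p = 0.406), by Cox7a1 at 9.05 ± 3.33 in HT and 11.9 ± 1.31 in WT libraries (adjusted p = 0.527) and by Uqcrb at 1379 ± 60.6 in HT and 1337 ± 52.9 in WT libraries (adjusted p = 0.568). Under fluoxetine 38 of 45 were lower in HT mice (median -0.03, 0.0112% of all genes called), and the smallest p belonged to Atp5k (-0.22 ± 0.08, adjusted p = 0.9998). Sdhd, Uqcrb and Cox6b1 had the smallest p of their complexes there, with log2 differences of -0.03, -0.05 and -0.06. Under lithium 40 of 45 were lower in HT mice (median -0.03, 0.0337% of all genes called). The smallest p belonged to Cox6a2, at 126 ± 24.9 in HT lithium and 158 ± 28.0 in WT lithium libraries (-0.34 ± 0.11, adjusted p = 0.316). Sdhd stood at 1857 ± 39.1 in HT lithium and 1921 ± 49.9 in WT lithium libraries (-0.05 ± 0.02, adjusted p = 0.422), Uqcrc1 at 6076 ± 262 and 6357 ± 233 (adjusted p = 0.558), and Atp5g2 at 162 ± 41.6 and 185 ± 30.4 (adjusted p = 0.515). The medians over all genes were 0.0029 under vehicle, 0.0012 under fluoxetine and -0.0046 under lithium. The 45 subunits share their libraries, so counts by direction are not counts of independent results. These genotype effects use the same lithium or vehicle libraries as the drug effects above. Between females and males no subunit was called either (0 of 45, beside 0.197% of all genes), and the smallest p belonged to Sdha, higher in females by a log2 difference of 0.03 ± 0.02 (adjusted p = 0.792). Of all genes, 0.157% were called higher and 0.0394% lower in females.

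Several subunits of complex IV exist as a widespread isoform and one known from a particular tissue, and the widespread isoform made up nearly all of each pair per kilobase. Cox4i2, the isoform known from lung and low oxygen, held 0.219 ± 0.0631% of the sum with Cox4i1 (SD, n = 56). Cox6b2, known from testis, held 0.492 ± 0.145% of the sum with Cox6b1, and Cox7a1, known from heart and skeletal muscle, held 0.793 ± 0.302% with Cox7a2. The share of Cox6a2 in the sum with Cox6a1 was 1.48 ± 0.200% in HT lithium and 1.41 ± 0.115% in HT vehicle libraries (SD, n = 10 each), and 1.77 ± 0.195% in WT lithium and 1.39 ± 0.167% in WT vehicle libraries (SD, n = 9 each). The widespread partner Cox6a1 was not called, with 7348 ± 682 normalised reads in WT lithium and 7291 ± 480 in WT vehicle libraries. Cox4i2, Cox6b2 and Cox7a1 averaged 24.1, 17.7 and 11.1 normalised reads, so that few reads stand behind their values, and Cox7a1 reached 10 in only 34 of 56 libraries. Cox6b2 had 16.2 ± 4.38 in WT lithium and 21.2 ± 4.45 in WT vehicle libraries (SD, n = 9 each; adjusted p = 0.312), and Cox4i1, Cox7a2 and Cox8a were not called in any comparison. Cox8b was not analysed here. Of the 3 genes for the c subunit, which forms the rotating ring of complex V, Atp5g3 held 77.3 ± 0.959%, Atp5g1 18.3 ± 0.810% and Atp5g2 4.44 ± 0.839% of their sum per kilobase (SD, n = 56). None of the 3 was called in any comparison, and in WT mice Atp5g1 held 18.7 ± 0.597% under lithium and 17.7 ± 0.761% under vehicle. These shares depend on the transcript lengths used, which were 2675.5 bases for Atp5g1, 586 for Atp5g2 and 718.5 for Atp5g3. Before division by length, Atp5g1 averaged 3284 normalised reads, Atp5g2 174 and Atp5g3 3727, so Atp5g1 and Atp5g3 were much closer.

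Other genes of the pathway, from lists chosen with earlier results of these data known, had these counts under lithium, to be read against the 8.77% of all genes called in HT mice (4.64% higher, 4.13% lower) and the 5.71% in WT mice (3.84% higher, 1.88% lower). With so few called genes per list, shares near these are not a result about the list. Of 37 nuclear subunits of complex I, 3 fell and none rose in HT mice and 2 fell and 1 rose in WT mice. Ndufa7 fell in both (log2 change -0.29 ± 0.07 SE in HT, adjusted p = 0.00582, and -0.26 ± 0.07 in WT, adjusted p = 0.0275), as did Ndufb4 (-0.13 ± 0.04, adjusted p = 0.0349, and -0.16 ± 0.04, adjusted p = 0.0154). Ndufs4 fell in HT mice (-0.06 ± 0.02, adjusted p = 0.0448), and the catalytic-arm subunit Ndufs1 rose in WT mice (0.08 ± 0.02, adjusted p = 0.0359). Of 13 mitochondrially encoded subunits, mt-Nd6 fell in HT mice (-0.50 ± 0.13, adjusted p = 0.0134) and mt-Nd3 in WT mice (-0.66 ± 0.20, adjusted p = 0.0469). Of 34 assembly factors of complexes II to V, 6 fell and 1 rose in HT mice and 2 fell and 2 rose in WT mice. Uqcc2, an assembly factor of complex III, fell in both (-0.20 ± 0.04 in HT, adjusted p = 0.00268, and -0.18 ± 0.05 in WT, adjusted p = 0.0157). Sdhaf1, which serves the insertion of iron-sulfur clusters into Sdhb, also fell in both (-0.22 ± 0.05, adjusted p = 0.00553, and -0.23 ± 0.06, adjusted p = 0.0124). Coa3, a complex IV assembly factor, fell in HT mice (-0.17 ± 0.04, adjusted p = 0.00682), Atpaf1, a chaperone for the beta subunit of complex V, rose in both (0.09 ± 0.02 in each, adjusted p = 0.00691 in HT and 0.0161 in WT), and Cox10 rose in WT mice (0.12 ± 0.03, adjusted p = 0.0288).

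The lists that follow are to be read against the same shares of all genes called. These were 8.77% in HT mice and 5.71% in WT mice (3.84% higher, 1.88% lower). Of 17 enzymes of the tricarboxylic acid cycle and pyruvate dehydrogenase, none was called in HT mice and 3 rose in WT mice. They were Idh3a, a subunit of isocitrate dehydrogenase (log2 change 0.14 ± 0.03 SE, adjusted p = 0.00199), Cs, citrate synthase (0.09 ± 0.02, adjusted p = 0.00515), and Dlst (0.09 ± 0.03, adjusted p = 0.0430). The median log2 change of the list was -0.02 in HT and 0.06 in WT mice, and 15 of 17 were higher in WT lithium libraries. Of 13 carriers and outer membrane genes, Slc25a4, an ADP/ATP carrier, and Vdac1 fell in HT mice (-0.10 ± 0.03 each, adjusted p = 0.0254 and 0.0283), and none was called in WT mice. Of 11 regulators of mitochondrial biogenesis none was called in HT mice, and Pprc1 rose in WT mice (0.16 ± 0.05, adjusted p = 0.0376).

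Of the lists of markers of other cells, some held called genes under lithium and some did not. Of all genes, 8.77% were called in HT and 5.71% in WT mice. All 11 microglial markers were lower under lithium in both genotypes, and those called included Fcrls and P2ry12 in HT mice and Siglech in WT mice. Their summed level ran from 10396 to 12309 in HT lithium and 10752 to 14055 in HT vehicle libraries, and from 9384 to 12923 in WT lithium and 11084 to 13329.9 in WT vehicle libraries. All 9 meningeal markers were lower, with Col3a1 called in both genotypes and Igf2 and Slc6a13 in WT mice, and with sums of 4556 to 7146 in HT lithium and 5136 to 9025 in HT vehicle libraries, and of 4748 to 7617 in WT lithium and 5834 to 9129 in WT vehicle libraries. Of 11 vascular markers 9 were lower in HT mice, 4 called lower (Cldn5, Kdr and Slco1c1 with the smallest p) and Flt1 called higher, and 8 were lower in WT mice, where Cldn5 and Kdr were called. The sums of these markers were 10801 to 14465 in HT lithium and 12524 to 16526 in HT vehicle libraries, and 12982 to 16190.1 in WT lithium and 13919.8 to 16982 in WT vehicle libraries. Of 9 markers of cortical excitatory neurons, Rorb fell in HT mice and Tbr1 rose in WT mice. Of the 3 skeletal muscle markers in the table, Acta1 fell in HT mice and Myh4 fell in WT mice. In WT mice all 10 olfactory markers were lower and all 15 striatal markers were higher under lithium, none called. In HT mice 8 of the 10 olfactory markers were higher and 11 of the 15 striatal markers were lower, again none called. No marker of astrocytes, oligodendrocytes, inhibitory neurons, blood cells or choroid plexus was called under lithium in either genotype. Of 10 astrocyte markers 5 were lower in HT and 6 in WT mice, of 10 oligodendrocyte markers 8 and 2, and of 8 markers of inhibitory neurons 6 and 3. All 5 erythroid markers were lower in both genotypes, and of 5 choroid plexus markers 5 were lower in HT and 4 in WT mice. The summed astrocyte markers had a median of 151249 in HT lithium and 159075 in HT vehicle libraries, and of 162146 in WT lithium and 164359 in WT vehicle libraries. The summed oligodendrocyte markers had a median of 148696 in HT lithium and 165488 in HT vehicle libraries, and of 160425 in WT lithium and 149371 in WT vehicle libraries, with wide overlap. None of the markers in the table was at 0 in every library. The part of these cells and regions in the changes of the subunits was not tested beyond the fits that follow. With the olfactory and striatal scores in the model, Cox6a2 was no longer called in WT mice (log2 change 0.29, adjusted p = 0.0841), and the calls of the other 7 subunits stood. Without the 19 libraries that carry such transcripts, Sdha (0.14, adjusted p = 0.0114) and Atp5b (0.12, adjusted p = 0.0379) were called in WT mice and no subunit was called in HT mice. All genes called then made up 2.86% in HT mice and numbered 212 of 17778 in WT mice, against 8.77% and 5.71% with all libraries; fewer libraries were compared. The median log2 change of the 45 subunits in HT mice was -0.05 without these libraries and -0.06 with them. Of the 5 subunits called in HT mice, Uqcrq then had a log2 change of -0.23 and Cox7a2l one of -0.06 (adjusted p = 0.216 and 0.156). In bulk tissue, fewer cells of a type and less RNA per cell cannot be told apart.

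Near-identical transcripts limit some values. For 20 of the 45 subunits another gene has a transcript that matches at 95% identity or more over at least 100 bases, and for 7 that gene was in the measured table. Both strands were searched, so genes that overlap a subunit on the opposite strand count too. The 20 and the 7 are therefore upper counts of the values that are limited. For Cox4i1, Atp5a1 and Uqcr10 the gene found, Emc8, Haus1 and 4930481A15Rik in that order, is not a pseudogene. Atp5f1 has 4 such genes, 2 of them pseudogenes, and Wdr77 is among those in the measured table. Atp5l has 11 such genes, 9 of them pseudogenes, and how reads are shared between them is decided by a model, so its fall carries that uncertainty. Gm10221, a copy in the measured table, averaged 104 normalised reads; it was higher in both lithium groups, without a call and with a standard error above 1 on the log2 scale, so its change was not resolved. The copy Gm4045 stayed below the filter on low values and was not tested. Atp5g2 averaged 174 normalised reads, while its processed copy Gm10175 averaged 1399, so the share of Atp5g2 among the c subunit genes is uncertain too. No such copy was found for Sdha, Uqcrh, Uqcrq, Cox6a2, Atp5b or Atp5e, and that of Cox7a2l was not in the measured table.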

How the data were processed

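The kit was a stranded TruSeq mRNA one, per the labels' protocols. Named per the submitters' processing notes, without their roles, are GRCm38, DESeq2 1.19.11, Salmon 0.11.2 and R 3.6.0. Each value in the deposited table is a signal, a read count divided by 1 size factor for the library, as the values themselves show: multiplied back, they were whole at a tolerance of 0.01 in every library where the factor could be told from 1. In 3 libraries (male 2 and male 5 of HT vehicle, and female 5 of HT lithium) it could not. Size factors ran from 0.818 to 1.23. Symbols, lengths and GC content came from GENCODE vM21, with the principal transcripts of each gene, and paired 18077 of the 18088 IDs. Because the values were already divided by size factors, limma replaced the count test that had been planned for raw counts.

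The test was that of limma 3.58.1 (R 4.3.3), with trend and robust options, on log2(value + 1); its model held 12 group means. Genes needed a value of at least 10 in at least 4 libraries. Effects were averaged over the sexes, and p-values were adjusted by Benjamini-Hochberg over all 17778 genes, with calls at 0.05. The alternatives were TMM rescaling, pseudocounts of 0.5 and 5, no filter, voom, edgeR 4.0.16 and DESeq2 1.42.0 on recovered reads, a fit of the compared groups alone, a block for the replicate number, slopes on length and GC content, tissue scores, leaving out 19 libraries with such transcripts, and leaving out each library in turn. The fit was tested on simulated data. The genes and lists were chosen with earlier results of these data known. Every subunit was accounted for; values are given for those called, for the smallest p of a complex with no call in a comparison, and for the isoforms, with up to 4 called genes of each other list. The result of 1 marker gene is not reported here.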

Additional observations from a re-analysis of the deposited data

Results flagged for a closer look

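In groups of 9 or 10 libraries, a library was singled out when its gap to the next exceeded the 95% limit of Dixon's test. Of 138 groups of values checked, 6 were singled out, and chance alone does so in about 1 of 20 groups. In 4 of the 6 the library was WT lithium female 2, the highest of its group for Cox6a2 (225 normalised reads, next 170.0), Atp5l (2737, next 2414), the share of complex III (0.0989% of all reads, next 0.0922%) and the share of complex V (0.316%, next 0.300%). The remaining 2 were low values in WT fluoxetine males: Cox6b2 in male 2 (7.09, next 16.9) and Atp5g3 in male 5 (3325, next 3693).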

How the results depend on the processing

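The counts of subunits called under fluoxetine, between genotypes, between sexes and in the interactions were 0 as reported, in each alternative run and in all 56 omissions of a library; the sexes were not fitted with only the groups compared. Under lithium in HT mice the count of 5 became 3 with only the groups compared, 0 with the length and GC slopes, 0 with the replicate block and these slopes, and 0 after dropping the 19 libraries that carried olfactory or striatal RNA. All genes called were then 6.58%, 2.59%, 3.45% and 2.86%. In WT mice the count of 5 became 3, 3 and 2 under the last 3 of these, with 1.97%, 2.86% and, last, 212 of 17778 of all genes called. The median log2 change of the subunits in HT mice was -0.06, -0.01, -0.01 and -0.05 in these 4. The subunits with a lower value numbered 25 in HT and 18 in WT mice with the slopes, and 27 and 18 with the replicate block and slopes. Leaving out 1 library gave 2 to 10 calls in HT mice: 2 without HT lithium female 5 or HT lithium male 3, 3 without HT lithium female 4, 8 without HT vehicle female 1, 9 without HT lithium female 1 and 10 without WT fluoxetine male 5. In WT mice it gave 3 to 6, with 3 without WT lithium female 2 or WT vehicle male 4 and 6 without WT fluoxetine male 5. Only the larger shifts of these counts are listed in full, for the alternatives as for the omissions. Elsewhere the count could still differ somewhat from 5. The subunits called could differ too, as for Cox6a2 in WT mice with the olfactory and striatal scores. Sdha kept its call in WT mice in 13 of 13 alternatives and in all 56 omissions; Uqcrq and Cox6a2 lost theirs in 11 omissions each, Atp5b and, in HT mice, Atp5e in 3, Uqcrh in 2, and Atp5l in WT mice in 1. Apart from that of Sdha, each of these calls, and those of Cox7a2l, of Atp5l in HT and of Atp5e in WT mice, was lost in 2 to 4 of 13 alternatives. No direction of a called subunit was reversed. The cause of these shifts was not tested. The replicate number as a block left both counts at 5, and same-numbered libraries did not deviate together (median correlation of residuals -0.0016). The number used is that of the titles. It differs from the number in the library name for WT fluoxetine female 4 and WT lithium females 2, 3 and 4. A block by the library names was not tested. Depth limits Cox7a1 most, which reached 10 normalised reads in 34 of 56 libraries.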
